A study of Mus musculus with 6 samples.

Results

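The dual-specificity MAP kinase phosphatases were examined in 6 samples of mouse microglia profiled on 1-colour arrays, 3 PGC-1αf/f and 3 mPGC-1α. The family comprised 10 genes, Dusp1, Dusp2, Dusp4, Dusp5, Dusp6, Dusp7, Dusp8, Dusp10, Dusp14 and Dusp16, among 23462 genes named on the array. They were measured by 12 of 56605 probes, namely those whose transcript accession belongs to a listed gene, with Dusp8 and Dusp14 having a pair of probes each. The family was picked with the differences between these arrays already known. Its differences, intervals and adjusted p-values between the groups are therefore a description of these 6 arrays and support no conclusion.

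All samples were labelled male and 10 weeks old, and the methods give a C57BL/6 background. The PGC-1αf/f mice, littermates used as controls, carried a loxP-flanked PGC-1α allele together with eGFP. The mPGC-1α mice carried the same allele plus Cx3cr1-Cre, a tamoxifen-inducible Cre recombinase inserted at the Cx3cr1 locus, so recombination is limited to cells that use the Cx3cr1 promoter. The methods describe tamoxifen dosing followed by an interval before experiments, but whether the control mice behind the arrays received it is not given in the sources used here. The cells were enriched by magnetic selection for P2RY12, a purinergic receptor of microglia, and the labels name no stroke procedure. The comparison describes the expression of these phosphatases in microglia of the 2 genotypes. Whether raised PGC-1α itself changes that expression was not tested.

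Dual-specificity phosphatases of this family remove phosphate from both the threonine and the tyrosine of the activation loop of MAP kinases (ERK, JNK and p38) and so switch these kinases off. Several of the genes are induced by the very kinases their proteins inactivate, which makes them a negative feedback arm of MAP kinase signalling. In macrophages and microglia, MAP kinases drive the production of inflammatory cytokines, and Dusp1 (MKP-1) is the best known brake on that output.

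Start regions of the genes are shown first, because several members are classical inducible genes and the array files hold no probe sequence. RefSeq (GRCm38.p6) start regions, spanning 250 bases before to 50 bases after the annotated start, were found for 9 of the 10 members and searched on both strands. Those of 4 genes are printed 5′ to 3′ on the strand of the gene: Dusp1, which had the largest difference of the family, Dusp2, which came next, and Dusp8 and Dusp5, which carry the same or another motif of inducible genes. Capitals mark the full cAMP response element TGACGTCA, its core TGACG, which reads CGTCA from the other strand, and, in Dusp5, the CArG box bound by serum response factor. A full element also contains the core on each strand, so the counts of cores include it. The Dusp1 region is chr17:26508423-26508722 on the minus strand, that of Dusp2 chr2:127335909-127336208 on the plus strand, that of Dusp8 chr7:142095235-142095534 on the minus strand and that of Dusp5 chr19:53528895-53529194 on the plus strand.
Dusp1: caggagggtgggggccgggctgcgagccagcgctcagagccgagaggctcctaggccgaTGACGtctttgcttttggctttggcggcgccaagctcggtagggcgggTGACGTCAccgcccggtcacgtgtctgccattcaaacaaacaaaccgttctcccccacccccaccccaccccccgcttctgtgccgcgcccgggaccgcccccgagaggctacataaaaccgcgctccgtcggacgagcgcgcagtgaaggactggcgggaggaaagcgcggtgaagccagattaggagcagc
Dusp2: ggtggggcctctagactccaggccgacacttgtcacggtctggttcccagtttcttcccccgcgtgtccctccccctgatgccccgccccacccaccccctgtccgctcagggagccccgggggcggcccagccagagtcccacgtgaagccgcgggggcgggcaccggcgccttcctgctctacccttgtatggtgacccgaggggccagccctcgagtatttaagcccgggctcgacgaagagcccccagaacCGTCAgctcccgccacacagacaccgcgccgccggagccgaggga
Dusp8: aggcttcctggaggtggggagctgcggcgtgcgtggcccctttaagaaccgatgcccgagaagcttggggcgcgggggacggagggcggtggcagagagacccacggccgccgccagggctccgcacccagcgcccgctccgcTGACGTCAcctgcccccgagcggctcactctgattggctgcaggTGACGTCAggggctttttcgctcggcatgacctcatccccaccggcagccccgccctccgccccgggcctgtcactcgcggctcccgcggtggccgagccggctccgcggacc
Dusp5: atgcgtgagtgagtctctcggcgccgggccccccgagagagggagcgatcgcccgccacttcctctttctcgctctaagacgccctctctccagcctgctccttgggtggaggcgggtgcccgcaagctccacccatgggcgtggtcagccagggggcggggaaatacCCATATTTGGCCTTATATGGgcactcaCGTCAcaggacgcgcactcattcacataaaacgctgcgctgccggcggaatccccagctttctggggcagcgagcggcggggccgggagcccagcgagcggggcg

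The Dusp1 region held 1 full cAMP response element at positions -143 to -136 from the start and a separate core at -191 to -187. Dusp8 held 2 full elements, at -107 to -100 and at -63 to -56. Full elements were present in 2 of the 9 members and in 1.79% of 32851 mouse start regions of the same length, and cores in 5 of 9 members and 20.8% of all. The adjacent CArG boxes of Dusp5, at -82 to -73 and -72 to -63, were the only ones in the family, against 1.63% of all regions. Of the other motifs searched, the GC box GGGCGG was present in 8 of 9 members (35.7% of all regions). The AP-1 motif TGANTCA (7.81% of all regions), the NF-κB motif (8.46%), the estrogen-related receptor motif TNAAGGTCA (1.28%) and TATAAA (13.6%) were present in 0 of 9. The members' regions were rich in GC, from 57.3% in Dusp6 to 78.7% in Dusp7, with a median of 52.7% over all regions. A match describes the letters of this window and is neither a binding site nor a cause of the array values.

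Values below are log2 signal minus the 75th percentile of the array, and differences are mPGC-1α minus PGC-1αf/f. Testing was restricted to probes that all 3 arrays of 1 group or the other measured well above background. Between 27025 and 30272 of 59305 spots were well above background per array, and 0 were saturated. The genotypes occupied separate rows of 1 slide (PGC-1αf/f row 1, mPGC-1α row 2), so row and genotype cannot be told apart. PGC-1αf/f replicate 3 stood apart, with a mean correlation to the other arrays of 0.928 where the others had 0.962 to 0.972. On mPGC-1α replicate 3, 4 Y-linked genes were not above background (-5.99 to -5.87) although the sample is labelled male. Xist, which is transcribed in female cells, was above background there (-1.63) and also on PGC-1αf/f replicate 2 (-2.78) and mPGC-1α replicate 2 (-2.40), both labelled male as well. Differences of members are also given with arrays left out. Ppargc1a, which encodes PGC-1α, had a brighter probe at 0.19, -0.44 and -1.21 in controls, compared with 0.57, 0.28 and 0.08 in mPGC-1α samples. The difference of 0.80 (SE 0.35, 1.74-fold, limma adjusted p = 0.306) lay within overlapping groups. The dimmer Ppargc1a probe differed by 0.59 (SE 0.38, limma adjusted p = 0.445), and its groups overlapped as well. All 12 microglial markers, P2ry12, Tmem119 and Sall1 among them, were above background on every array where they had a usable spot.

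Within the family, Dusp1 separated the genotypes by the widest margin, while the remaining members differed by less or were not measurable. Of the 12 probes, 10 (8 genes) were tested, and 1 was past a limma adjusted p of 0.05, against a background of 0.0792% of all tested probes. By unadjusted p (0.05), 3 member probes were higher in mPGC-1α microglia and 0 were lower, with a background of 7.53% higher and 9.21% lower (16.7% in all). Among the 9 tested probes without a missing value, the groups of 3 did not overlap, 3 higher and 0 lower, where the background over all probes was 11.4% higher and 13.7% lower (25.2% in all). Since the family was chosen on this contrast, nothing is read from these counts. The median difference was 0.46 over the 7 tested genes with values on all arrays and -0.0026 over all tested probes. The 0.46 is the value of Dusp10, and Dusp6 (0.09) was left out of that median for a missing value. With Dusp4 and Dusp5 included, the middle of the 9 values was 0.13, which is that of Dusp4 itself, a probe below background, and nothing is read from it. Scaling by the median of each array moved the median of all tested probes to -0.14.

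**Figure D1:**
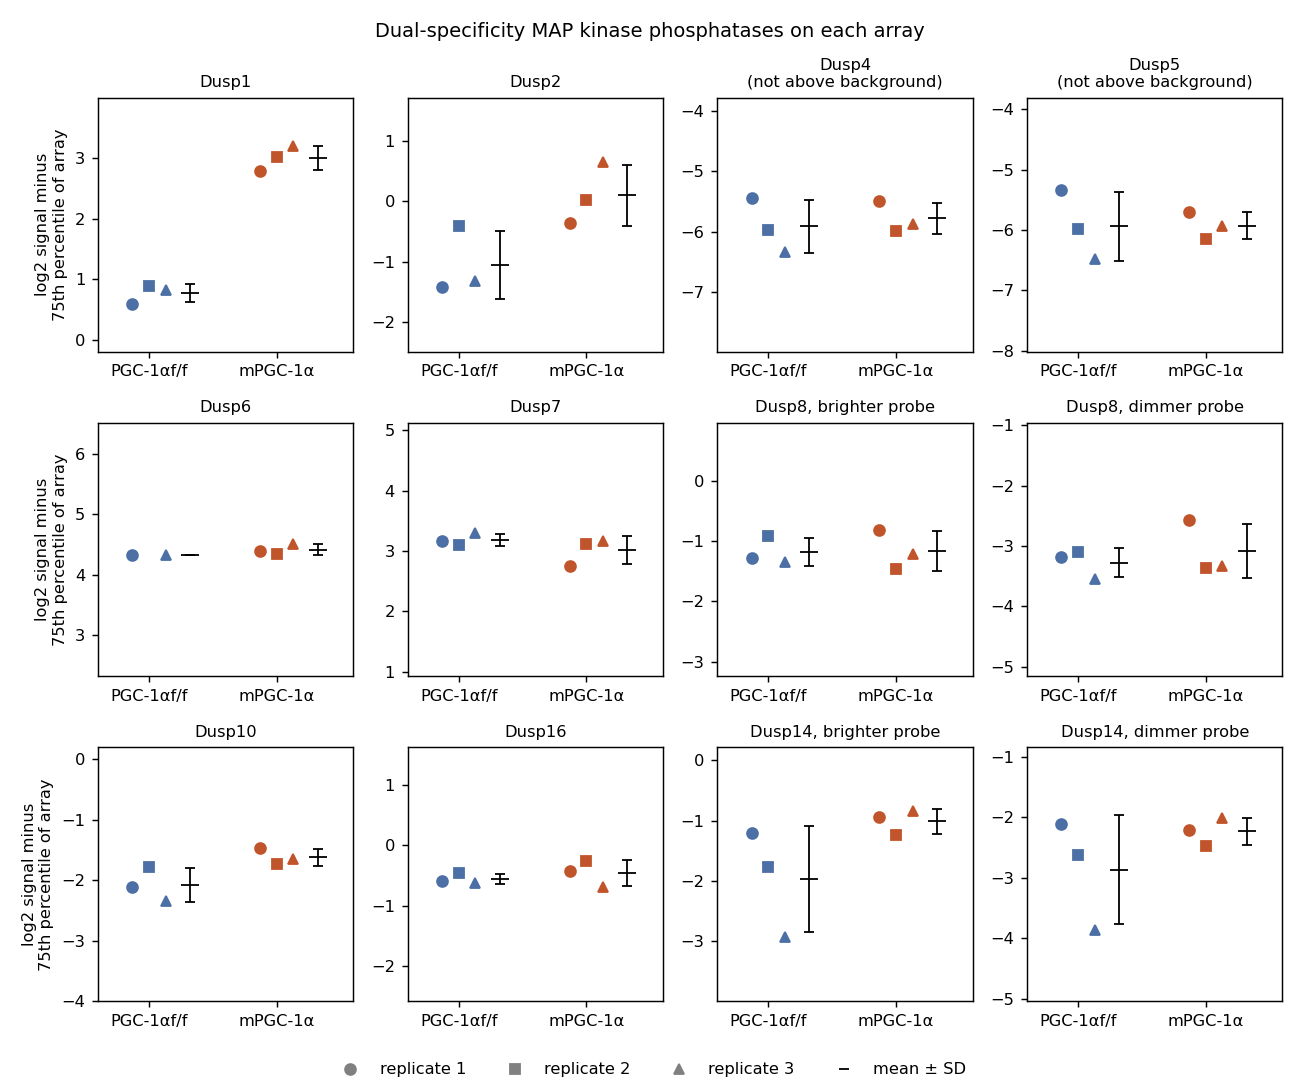
Log2 signal minus the 75th percentile of the array (y axis) on each of the 6 arrays for the 12 probes, PGC-1αf/f in blue and mPGC-1α in orange, with the mean and SD at the right of each group. Every panel spans the same number of log2 units. The Dusp1 groups lie 1.91 apart, Dusp4 and Dusp5 are not above background, and the Dusp6 group of PGC-1αf/f has 2 values.

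Dusp1, Dusp2, Dusp4 and Dusp5 encode the nuclear, inducible members. Dusp1 acts on p38, JNK and ERK and is transcribed as an immediate-early gene. Its probe (A_55_P2908530) read 0.60, 0.89 and 0.82 in the controls, compared with 2.80, 3.02 and 3.20 in mPGC-1α microglia. All 3 mPGC-1α samples were above all 3 controls, and the gap of 1.91 between the groups exceeded the range within either. The means were 0.77 ± 0.15 and 3.01 ± 0.20 (SD, n = 3 each). The difference was 2.24 (SE 0.16, 95% interval 1.86 to 2.62), a 4.71-fold higher signal (limma adjusted p = 0.0122), and its p ranked 5 among all tested probes. Since these are bulk samples, a change in the share of a cell type and a change in RNA per cell cannot be told apart.

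The size of the Dusp1 difference was nearly the same whichever array was left out, between 2.14 and 2.34, but its call was not. It was past the threshold in 12 of 17 alternative analyses, with adjusted p from 4.84e-05 to 0.125. The lowest came from the deposited table without normalization, where tested members with values on all arrays shared the same SE, 0.43. It missed the threshold without PGC-1αf/f replicate 2 (2.30, with adjusted p 0.0754), without mPGC-1α replicate 2 (2.23, adjusted p = 0.125) and without mPGC-1α replicate 3 (2.14, adjusted p = 0.0896). Without both arrays numbered 3, the difference was 2.17 (adjusted p = 0.0796). The remaining loss came with the replicate number as a block (2.24, adjusted p = 0.0807). When the outlying control, PGC-1αf/f replicate 3, was left out, it was 2.26 (adjusted p = 0.0139).

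Dusp2 (PAC-1), a nuclear phosphatase found mostly in immune cells, was the next largest. Its probe (A_52_P399934) gave -1.43, -0.40 and -1.32 in PGC-1αf/f and -0.36, 0.01 and 0.64 in mPGC-1α samples. The groups just failed to touch, with the highest control only 0.042 below the lowest mPGC-1α sample. The difference was 1.15 (SE 0.35, interval 0.32 to 1.98), or 2.22-fold, at an adjusted p of 0.216. It ranged from 0.88 without mPGC-1α replicate 3 to 1.47 without PGC-1αf/f replicate 2, was 0.74 without both arrays numbered 3 and was lowest, 0.68, with arrays weighted by quality. None of the 17 alternatives took it past the threshold (adjusted p from 0.143 to 0.475).

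Dusp4 (MKP-2), an inducible phosphatase of ERK, JNK and p38, and Dusp5, a nuclear phosphatase specific to ERK, were not well above background on any of the 6 arrays. Dusp4 signal lay between -6.33 and -5.44 and Dusp5 signal between -6.49 and -5.34. The dimmest signals called above background averaged -3.70 in the controls and -3.66 in mPGC-1α samples. No fold is given for either gene, and a difference below that floor was not detectable on these arrays. The inducible nuclear class was thus split, with 2 members measured and 2 below background.

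Dusp6 (MKP-3) and Dusp7 (MKP-X) encode cytoplasmic phosphatases that act mainly on ERK, with Dusp6 widely used as a readout of ERK activity. The Dusp6 probe (A_51_P502614) gave 4.32 on both PGC-1αf/f arrays with a usable spot, since the spot on replicate 2 was an outlier, and 4.39, 4.34 and 4.51 on the mPGC-1α arrays. The fit without that value gave a difference of 0.09 (SE 0.15, adjusted p = 0.770). The Dusp7 probe (A_52_P173197) gave 3.16, 3.10 and 3.29 in PGC-1αf/f and 2.76, 3.12 and 3.17 in mPGC-1α samples. It was the only tested member with a lower mean in mPGC-1α, by -0.17 (SE 0.16, adjusted p = 0.608), and its groups overlapped. Its difference stayed between -0.24 and -0.04 when any 1 array was left out, and was -0.31 under a median shift.

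Dusp8, Dusp10 and Dusp16 encode phosphatases that prefer JNK and p38. Dusp10 (MKP-5), a regulator of innate and adaptive immune responses, gave -2.12, -1.78 and -2.34 in PGC-1αf/f and -1.47, -1.74 and -1.66 in mPGC-1α samples (probe A_51_P104418). The groups were separated by only 0.041, and the control nearest to the mPGC-1α samples was replicate 2. The difference was 0.46 (SE 0.18, interval 0.03 to 0.88), or 1.37-fold, at an adjusted p of 0.280. With 1 array left out it ran from 0.33 to 0.61, lowest without PGC-1αf/f replicate 3 and highest without replicate 2 of that group. It was 0.24 with arrays weighted by quality and 0.29 under normexp background correction with quantile normalization.

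Dusp16 (MKP-7), a cytoplasmic JNK phosphatase, gave -0.60, -0.46 and -0.62 in PGC-1αf/f and -0.43, -0.27 and -0.69 in mPGC-1α samples (probe A_66_P116252), with overlapping groups and a difference of 0.09 (SE 0.15, adjusted p = 0.775). The brighter Dusp8 probe (A_51_P263246) gave -1.27, -0.92 and -1.35 in PGC-1αf/f and -0.82, -1.46 and -1.21 in mPGC-1α samples, a difference of 0.02 (SE 0.21, adjusted p = 0.974). The dimmer Dusp8 probe (A_51_P114314), above background on 2 of 3 PGC-1αf/f arrays, differed by 0.19 (SE 0.25, adjusted p = 0.718). On both Dusp8 probes, mPGC-1α replicate 1 was the highest array and the other two mPGC-1α arrays lay within or below the control range. The sign of the differences of Dusp6, Dusp8 and Dusp16 turned under other scalings or with 1 array left out.

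Dusp14 (MKP-6) encodes a small atypical phosphatase that lacks the kinase-binding domain of the other members. Its brighter probe (A_55_P2914662) gave -1.20, -1.76 and -2.93 in PGC-1αf/f and -0.94, -1.24 and -0.85 in mPGC-1α samples. Its dimmer probe (A_55_P2063216) gave -2.11, -2.62 and -3.87 in PGC-1αf/f and -2.20, -2.47 and -2.02 in mPGC-1α samples. On both probes PGC-1αf/f replicate 3 was the lowest array, and the groups overlapped. The differences were 0.96 (SE 0.41, interval -0.02 to 1.94, adjusted p = 0.306) and 0.63 (SE 0.42, adjusted p = 0.466). They were 0.47 and 0.13 without PGC-1αf/f replicate 3, and 0.39 and 0.03 without both arrays numbered 3. Array weights gave 0.32 and normexp with quantile normalization 0.39 at the dimmer probe, and leaving out PGC-1αf/f replicate 1 gave 1.01.

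**Figure D2:**
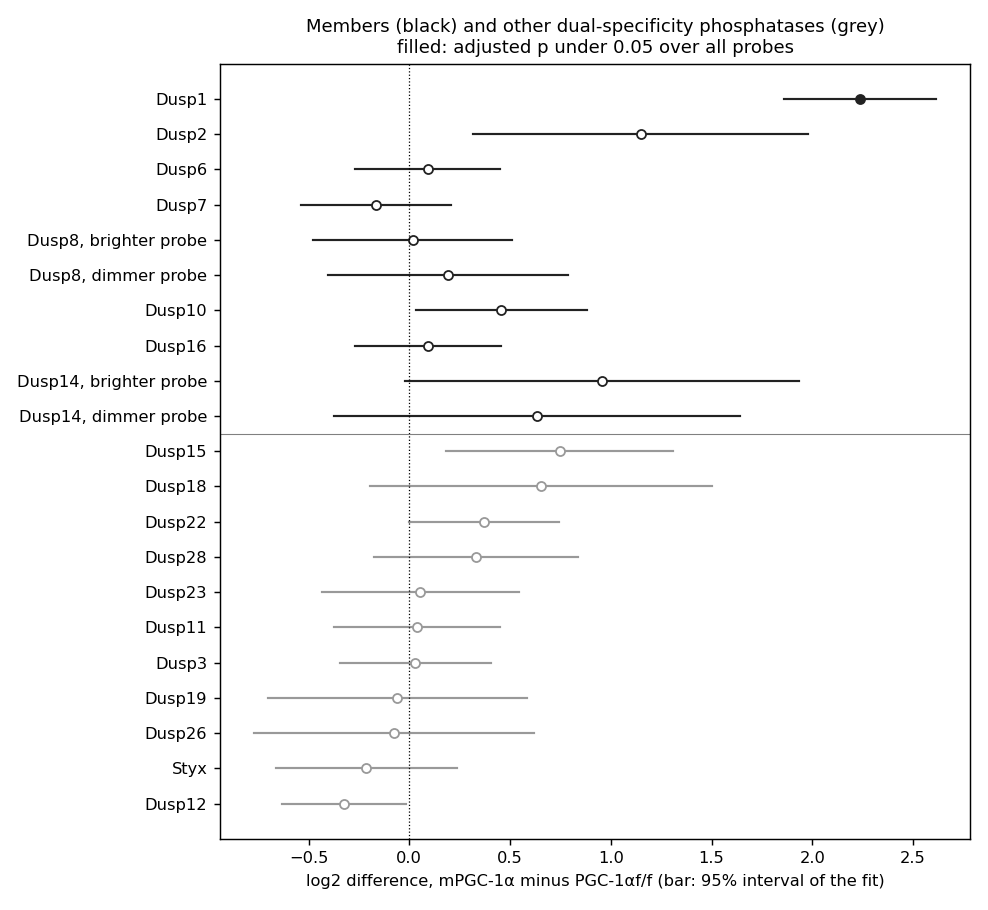
Log2 difference, mPGC-1α minus PGC-1αf/f (x axis), with the 95% interval of the limma fit as a bar, for the 10 tested member probes (black) and the 11 other tested dual-specificity phosphatases (grey). Dusp1, at 2.24, is the only filled point, which marks an adjusted p under 0.05 over all probes.

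Markers of other cell types moved with some of these values, given here as sums of marker levels on the linear scale relative to the 75th percentile. The neutrophil sum was 114, 130 and 29.0 in the controls, compared with 131, 136 and 153 in mPGC-1α samples. The mean was higher in mPGC-1α for 9 of 10 tested neutrophil genes (median difference 1.75, and 0.34 without PGC-1αf/f replicate 3), and 0 were past the threshold. The blood leukocyte sum was 72.3, 75.9 and 17.7 against 78.3, 84.2 and 97.6, with all 12 tested genes having a higher mean (median difference 1.01, and 0.35 without PGC-1αf/f replicate 3), 0 past the threshold and Cd79a and Klrb1c not above background on any array. PGC-1αf/f replicate 3, lowest for both sums, was also the lowest array for Dusp10 and for both Dusp14 probes. Among the controls, replicate 1 was lowest for Dusp1 and Dusp2. Among the mPGC-1α samples, both sums, Dusp1 and Dusp2 were all lowest on replicate 1 and highest on replicate 3. The difference was 2.26 for Dusp1 and 1.01 for Dusp2 without PGC-1αf/f replicate 3, and 2.14 and 0.88 without mPGC-1α replicate 3.

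The sum over the 6 microglial markers with a value on every array ran from 96.9 to 116 on PGC-1αf/f and from 88.9 to 101 on mPGC-1α arrays. That of border macrophages ran from 9.16 to 11.0 and from 9.52 to 18.1, and that of endothelial and mural cells from 4.01 to 15.4 and from 14.5 to 19.2 (Tek, Rgs5 and Kcnj8 not above background). Oligodendrocyte sums did not overlap, with 17.4 to 21.2 on PGC-1αf/f and 12.7 to 15.1 on mPGC-1α arrays, and by unadjusted p (0.05) 5 of 12 tested genes were lower and 1 higher. Astrocyte sums were 16.4 to 22.9 and 19.6 to 30.9, and neuron sums 13.9 to 18.0 and 16.0 to 18.3. The part of these cells in the phosphatase values was not tested.

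**Figure D3:**
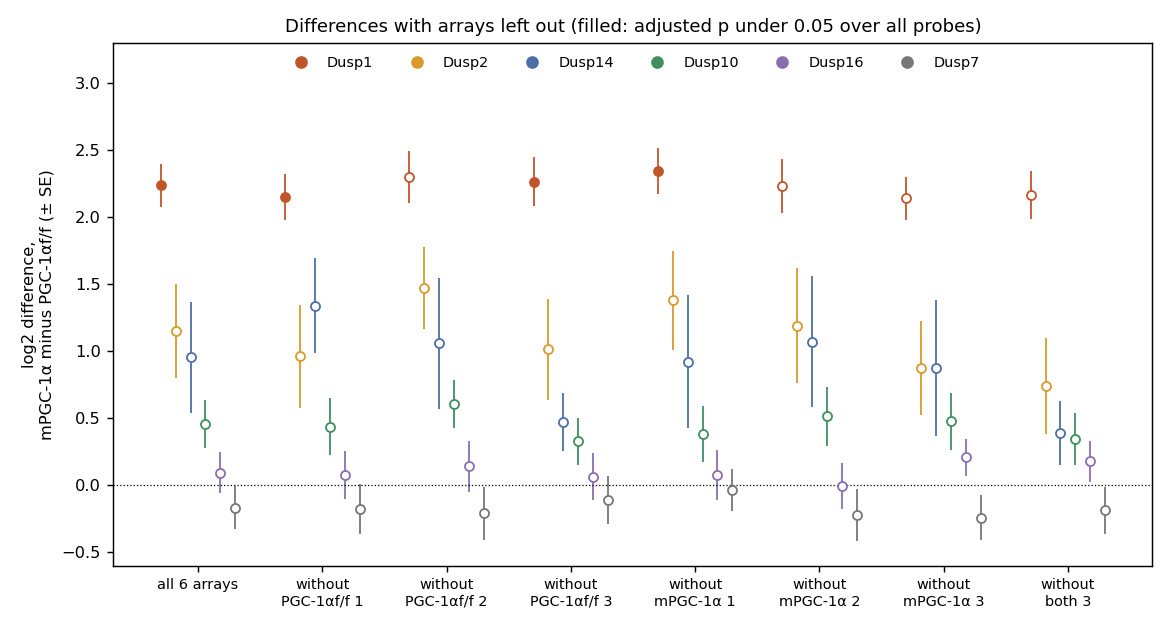
Log2 difference, mPGC-1α minus PGC-1αf/f, with its SE (y axis) for 6 members, with all 6 arrays and with arrays left out (x axis). Dusp1 stays between 2.14 and 2.34, with filled points past an adjusted p of 0.05, and the brighter Dusp14 probe falls to 0.47 without PGC-1αf/f replicate 3.

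The genes around the phosphatases in the pathway were described from 8 lists of 103 genes, of which 102 had a probe and 80 were tested. Of these 80 genes, 1 rose past the adjusted threshold and 0 fell, where 0.0792% of all tested probes were past it. By unadjusted p (0.05), 8 had a higher and 3 a lower signal, beside 7.53% higher and 9.21% lower over all tested probes. Of the higher genes, Dusp15, Mapk13 and Map3k20 were above background on 2 of 3 PGC-1αf/f arrays. They were tested only through the mPGC-1α group, where they were high, so nothing is read from this count. The median difference was 0.01, and 41 of the 80 were above 0, where 49.7% of all tested probes were. For the kinases the medians lay just below 0. The median was -0.09 over 9 MAP kinases, -0.12 over 6 MAP kinase kinases and -0.08 over 17 MAP3 kinases. It was -0.04 over 10 kinases that are MAP kinase substrates and -0.05 over 4 other phosphatases of MAP kinases.

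Mapk8, which encodes JNK1, a substrate of Dusp1, Dusp10 and Dusp16, differed by -0.44 (adjusted p = 0.209). Map2k6, the kinase that activates p38, differed by -0.55 (adjusted p = 0.246), and by -0.29 without both arrays numbered 3. Map3k6, an activator of the JNK and p38 arms, differed by 0.80 (adjusted p = 0.206). Mapk13, which encodes p38δ, and Map3k20, both below background on 1 PGC-1αf/f array and named after their values were seen, differed by 2.11 (adjusted p = 0.297) and 1.16 (adjusted p = 0.0709). Mapk13 was lowest on PGC-1αf/f replicate 3, at -4.60, with -1.96 and -0.77 on the other controls, and its difference without that array was 1.03. None of these kinases was past the threshold in the fit given here. Mapk13 and Map3k20 were tested only because all 3 mPGC-1α arrays, where they were high, were above background. Their calls in other settings are therefore a description only. Map3k20 was past the threshold with array weights (adjusted p = 0.0163) and with the slide column as a block (0.0320). Mapk13 was past it in the deposited table without normalization (0.000175). In that setting the tested members with values on all arrays shared the same SE, 0.43, whatever their own spread.

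Other dual-specificity phosphatases, most of them atypical, were tested for 11 of 17 genes. Their median difference was 0.04, and by unadjusted p (0.05) the signal of 1 was higher and that of 1 lower. Over all tested probes the shares were 7.53% higher and 9.21% lower. Dusp12 had the lowest difference, -0.32 (adjusted p = 0.284). Dusp15 had the highest, 0.75 (adjusted p = 0.226), and was above background on 2 of 3 PGC-1αf/f arrays. It was named after its value was seen.

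Transcription factors that MAP kinases induce or activate had the highest median of the pathway lists, 0.33 over 15 genes, with 12 above 0. Fosb, an immediate-early AP-1 subunit, was the 1 gene past the threshold. It gave -2.01, -2.33 and -1.45 in PGC-1αf/f and 1.06, 1.81 and 1.77 in mPGC-1α samples, a difference of 3.48 (SE 0.29, adjusted p = 0.0169). As with Dusp1, all mPGC-1α samples lay above all controls. The Fosb call was lost without PGC-1αf/f replicate 1 (adjusted p = 0.0653) or 2 (0.0787), without mPGC-1α replicate 2 (0.143) or 3 (0.149), without both arrays numbered 3 (0.0713), and with the replicate number as a block (0.0951). Its difference in those fits was 3.28 to 3.60.

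Ier2, another immediate-early gene, differed by 1.49 (adjusted p = 0.0900), and Egr1, a zinc finger factor induced through ERK and named after its value was seen, by 1.37 (adjusted p = 0.0784). Neither was past the threshold in this fit. Both were past it with array weights (Ier2 adjusted p = 0.00938, Egr1 0.00994) and with the slide column as a block (0.0374 and 0.0325), Ier2 also in the deposited table (0.0397) and Egr1 also without PGC-1αf/f replicate 3 (0.0426). Fos had no value on at least 1 array and is not described. The groups did not overlap for 5 of the 15 tested transcription factors, all higher in mPGC-1α samples. They overlapped for others of the list, such as Egr2 (0.33), Atf3 (0.42), Junb (0.26) and Myc (0.35), and Egr3 was not tested. The Sprouty, Spred and other ERK feedback genes had a median of 0.20 over 8 genes. Ier3, an immediate-early regulator of ERK signalling, was highest among them at 1.64 (adjusted p = 0.0728), and was past the threshold with array weights (0.0319), with the slide column as a block (0.0434) and in the deposited table (0.0129).

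**Figure D4:**
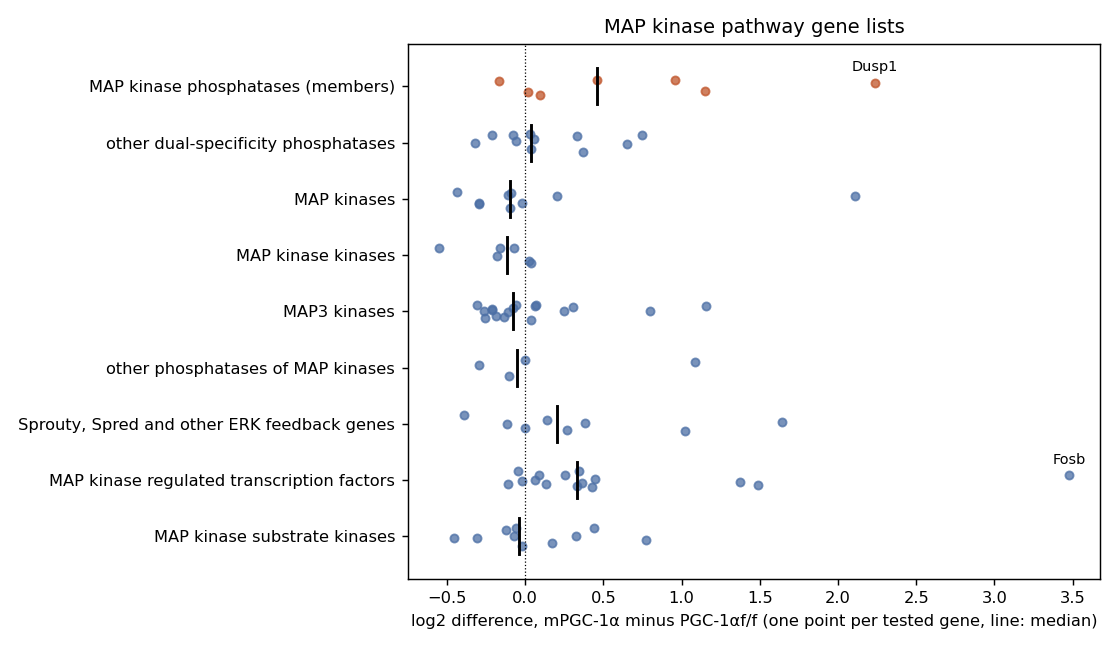
Log2 difference, mPGC-1α minus PGC-1αf/f (x axis), with a point for each tested gene with values on all arrays, and a line at the median of each list (y axis). The members shown (orange), which leave out Dusp6, have a median of 0.46 and the MAP kinases one of -0.09. Dusp1 and Fosb are the genes past an adjusted p of 0.05.

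Genes whose pattern over the 6 arrays was most like that of a member were sought among 11564 genes above background on all arrays. For Dusp1, Pearson's r over the arrays was highest with Aen (0.9996), Wdr43 (0.998) and Cfap410 (0.992). Their differences between the groups, 0.71, 0.28 and 0.42, were smaller than that of Dusp1, and 186 genes had r above 0.9. For Dusp2, whose highest array was mPGC-1α replicate 3, the nearest were Ccl4 (0.991), a chemokine with a difference of 1.15, Slc2a1 (0.988), a glucose transporter, and Dap (0.988). For Dusp10 they were Timm17b (0.991), Scrg1 (0.989) and Amot (0.983). The 6 points come from 2 groups on 1 slide, and each correlation is a description without a test.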

How the data were processed

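Per the labels and methods, the authors extracted total RNA from P2RY12-selected microglia, amplified it linearly, labelled it with Cy5 and hybridized each sample to an Agilent 1-colour mouse array. The deposited scanner files hold the background-subtracted, detrended intensity of each spot (Feature Extraction 11.5.1.1, per the file headers). The deposited table of the series holds the same intensity values, within 0.497%, without normalization between arrays. The build in the file headers differs from GRCm38.p6, so RefSeq tables gave names and start regions only.

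The 75th percentile of 59305 non-control spots (1012 to 2138 units) was subtracted per array on the log2 scale, outlier spots were left out, and spots of a probe were averaged. A share of 0.5 of a probe's spots above background sufficed for calling it above background. Of 56605 probes, the 25333 so called in every sample of either genotype were fitted, and 25257 had a p (limma 3.58.1, lmFit and eBayes, two-sided, R 4.3.3). P-values were adjusted by Benjamini-Hochberg over all tested probes, with a threshold of 0.05. Intervals of differences are the fit's 95% intervals. The fit was tested on simulated data. A gene was represented by its brightest probe with a value on all arrays.

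The members, lists and tests were chosen with earlier results of these data known. Every member was named. Pathway genes were named when past the threshold, or among the 2 highest or 2 lowest of a list at an unadjusted p under 0.05 and above background on all arrays. Likeness took the 3 genes with the highest r for each member above background whose groups did not overlap. Nothing says how samples map to separate isolations, so p-values measure the spread between these 6 samples, and their number limits the precision. The deposited table without normalization is an exception. Every tested member with values on all arrays had the same SE there, 0.43, so its p-values do not follow a probe's own spread. Alternatives were other scalings, filters, blocks, array weights, gene means and arrays left out. Tables and plots used Python 3.11.15, numpy 2.4.6, pandas 2.3.3, scipy 1.17.1 and matplotlib 3.10.9, with the data.table package (1.17.8) in R.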

Additional observations from a re-analysis of the deposited data

How the results depend on the processing

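Over all 17 alternatives Dusp1, Dusp2, Dusp10, Dusp7 and the brighter Dusp14 probe kept their direction. Ppargc1a stayed above 0 and short of the threshold, between 0.44 (PGC-1αf/f replicate 3 left out) and 1.14 (PGC-1αf/f replicate 1 left out; adjusted p from 0.115 to 0.834). Not every alternative could turn a sign. The differences of Dusp1, Dusp2, Dusp7 and Dusp10 were unchanged by gene means, the replicate block and either change of the filter on dim probes. The groups of Dusp1, Dusp2 and Dusp10 did not overlap, so leaving arrays out could not turn their sign either. A kept direction carries no information in those settings. Small differences turned sign. Dusp6 became -0.012 under quantile normalization, -0.042 under a median shift and -0.086 under normexp with quantile normalization. Dusp16 became -0.046 under a median shift and ran from -0.0047 to 0.21 with 1 array left out, lowest without mPGC-1α replicate 2. The brighter Dusp8 probe became -0.12 under a median shift, -0.018 in the deposited table without normalization and -0.24 with array weights. It ran from -0.16 to 0.16 with 1 array left out and was -0.043 without both arrays numbered 3, a setting chosen after seeing the data. The dimmer Dusp8 probe ran from -0.068 to 0.33 with 1 array left out. The members' median over 9 genes (0.13) was 0.46 with probes above background on all arrays only, and 0.064 to 0.37 with 1 array left out, where the highest value came without PGC-1αf/f replicate 1. Both 0.13 and 0.37 are the values of Dusp4, below background on every array, so this median carries no information on the family.

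Same-numbered arrays deviated together weakly (r = 0.186, 0.0828 and 0.0414), and nothing ties the numbers to shared animals or days. With the replicate number as a block, 0 members and 0 pathway genes were past the threshold (Dusp1 2.24, adjusted p = 0.0807; Fosb adjusted p = 0.0951). Over all probes limma then called 0, with 2393 higher and 2304 lower by unadjusted p (0.05), and 20 without the block. With 1 array left out, 0 to 1 members and 0 to 2 pathway genes were past it, and 0 of either without both arrays numbered 3. Pathway genes past the threshold numbered 4 in the deposited table (Fosb, Ier2, Ier3, Mapk13), 5 with a random block for the slide column, 5 with array weights (Fosb, Ier2, Ier3, Egr1 and Map3k20 in both) and 2 with probes averaged per gene. The causes were not tested. Calls over all probes numbered 456 in the deposited table, 138 with the slide column, 754 with array weights, 11 under normexp, 9 with no filter on dim probes, 8 with probes averaged per gene, 4 with probes above background on all arrays, 2 without both arrays numbered 3 and 0 to 24 with 1 array left out. Where an arm kept 2 arrays, its spread was pooled with the other. Signal near background limits Dusp4 and Dusp5, for which no difference can be given.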
